A study of Homo sapiens with 4 samples.

Results

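Gene deserts are the long stretches of chromosome that hold no protein-coding gene, and the intervals described here are the stretches of open chromatin that lie in them. Of the 73135 intervals counted in the lymphoma line TMD8, 5432 were taken as desert intervals. They lie on an autosome, are at most 5000 bp long, and have their midpoint more than 100 kb from the body of any protein-coding gene. Intervals within 5 Mb of a centromere, and those of the wide heterochromatic stretch of chromosome 1, were left out. Each desert was taken as the gap between neighbouring protein-coding genes, and the 5432 intervals fell into 908 deserts.

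The assay was ATAC-seq: a transposase inserts sequencing tags wherever nucleosomes leave DNA exposed, and the tagged ends are counted. TMD8 is an established cell line of activated B cell-like (ABC) diffuse large B cell lymphoma. The control group is 2 libraries of cells given a scrambled short hairpin RNA (shRNA), and the shIRF4 group is 2 libraries of cells given an shRNA against IRF4. The sample titles say shIRF4 where the library names say siIRF4, the labels name no harvest time, and nothing in them says that libraries of a group came from separate cultures, so p-values measure only the spread between these libraries.

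Open chromatin far from genes mostly marks distal enhancers, which transcription factors open and which can act on a gene over long distances. It also marks CTCF sites that anchor chromatin loops and the starts of long noncoding RNAs (lncRNAs). IRF4 is a transcription factor of activated B cells and plasma cells on which ABC lymphoma cells depend. It binds DNA weakly alone and mostly sits on composite elements beside ETS factors such as PU.1 and SPIB, or beside the AP-1 factor BATF. The position of an interval does not show which gene it acts on, and accessibility does not measure how far IRF4 was silenced.

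The reference tables at hand hold sequence only at annotated gene starts, so the desert sequences that can be shown are those at lncRNA starts. Of the RefSeq promoter windows, which run from 250 bases before to 50 bases after a gene's start, 117 were covered by a desert interval over at least 150 bp. These windows belong to 108 genes, all of them lncRNAs, and lie in 102 desert intervals. The windows below are those of the named lncRNAs with the largest falls (LINC00494 and LINC00578) and the largest rises (LINC01812 and LINC00423) among these intervals. They come from RefSeq, are written 5′ to 3′ along the gene's strand in the hg38 build, and have in capitals every match to one of 8 motifs that IRF4 or other B cell factors bind.
LINC00494, chr20:48359661-48359960, plus strand: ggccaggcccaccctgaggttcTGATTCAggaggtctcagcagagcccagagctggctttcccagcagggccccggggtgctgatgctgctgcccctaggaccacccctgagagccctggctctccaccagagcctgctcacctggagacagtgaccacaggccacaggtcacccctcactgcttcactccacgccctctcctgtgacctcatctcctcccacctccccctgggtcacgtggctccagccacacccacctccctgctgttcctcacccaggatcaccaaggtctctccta
LINC00578, chr3:177441671-177441970, plus strand: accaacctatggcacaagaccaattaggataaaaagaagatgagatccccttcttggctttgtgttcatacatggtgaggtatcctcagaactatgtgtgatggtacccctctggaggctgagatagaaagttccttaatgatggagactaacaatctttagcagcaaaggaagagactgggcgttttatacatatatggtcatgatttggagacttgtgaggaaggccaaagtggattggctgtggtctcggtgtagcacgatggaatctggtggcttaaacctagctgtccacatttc
LINC01812, chr2:67825513-67825812, minus strand: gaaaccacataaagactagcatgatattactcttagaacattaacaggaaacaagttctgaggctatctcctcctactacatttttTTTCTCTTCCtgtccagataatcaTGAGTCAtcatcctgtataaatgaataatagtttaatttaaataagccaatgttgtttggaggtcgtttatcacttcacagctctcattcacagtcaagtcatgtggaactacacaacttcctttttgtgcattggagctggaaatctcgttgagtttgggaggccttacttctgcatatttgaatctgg
LINC00423, chr13:32911603-32911902, minus strand: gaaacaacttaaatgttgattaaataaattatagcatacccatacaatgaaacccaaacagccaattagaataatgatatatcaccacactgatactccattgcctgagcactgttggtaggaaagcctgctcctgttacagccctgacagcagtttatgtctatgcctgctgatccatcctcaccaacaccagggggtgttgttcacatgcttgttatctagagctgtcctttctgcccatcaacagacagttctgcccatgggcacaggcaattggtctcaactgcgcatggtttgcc

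Levels are given in CPM, the count of an interval relative to its library's scaled total. At the LINC00494 start the level was 19.04 and 18.1 CPM in the control libraries and 10.97 and 10.6 CPM in the shIRF4 libraries. The groups did not overlap, and the log2 fold change was -0.78 (standard error, SE, 0.11; adjusted p = 1.67e-05, edgeR). Intervals with an adjusted p under 0.05 in the fit over all intervals are here said to be called, as lower or higher in shIRF4. At the LINC00578 start the level was 20.2 and 21.4 CPM in control and 14.5 and 14.9 CPM in shIRF4, a fall of -0.50 (SE 0.10, adjusted p = 0.000724, edgeR). The LINC01812 start went the other way and was low in both control libraries, with 2.77 and 2.46 CPM against 7.98 and 6.0 CPM in shIRF4. Its rise was 1.48 (SE 0.21, adjusted p = 1.50e-05, edgeR). The LINC00423 start held 3.86 and 4.84 CPM in control and 6.30 and 6.76 CPM in shIRF4, a smaller rise of 0.56 (SE 0.18, adjusted p = 0.0274, edgeR).

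Of the 102 desert intervals at lncRNA starts, 13 were lower and 8 were higher in shIRF4, beside 15.5% lower and 7.27% higher over all tested intervals. The motifs were searched on both strands of the promoter windows and may overlap one another. The AP-1 motif, TGANTCA, matched the LINC00494 window and the LINC01812 window. It was in 3 of the 14 windows whose interval was called lower, in 4 of the 8 called higher and in 14 of the 95 not called, and 7.71% of all 35116 promoter windows hold it. The ETS-IRF composite element, GGAA and GAAA with any 2 bases between, matched the LINC01812 window beside the AP-1 match. It was in 1 window called lower, 1 called higher and 1 not called, against 2.82% of all windows. The IRF pair, GAAA and GAAA with any 2 bases between, was in no called window and in 6 that were not called, against 3.57% of all windows. The octamer ATGCAAAT, the RUNX motif TGTGGTTA and the ETS motif CCGGAAGT were each in 1 window called lower and in none called higher, and among those not called in 1, 1 and 0. They are held by 1.77%, 0.769% and 4.14% of all windows. The EBF motif (TCCC, any 2 bases, GGGA) and the NF-kB motif (GGGAA, any base, TTCC) were in none of the called windows and each in 3 of those not called, against 1.21% and 0.439% of all windows. The LINC00578 and LINC00423 windows matched none of the 8 motifs.

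The total count per library was 9112860 to 17954924, of which desert intervals held 339730 to 684918, and the median desert interval had 40 to 82 counts per library. Over desert intervals, log2 CPM correlated at 0.974 between the control libraries, 0.957 between the shIRF4 libraries and 0.832 to 0.863 between groups, as a description over intervals. The control pair differed by no more than sampling noise over desert intervals (chi-square per degree of freedom 0.984, p = 0.801) and slightly over all intervals (1.04), and both were kept as replicates. The shIRF4 pair differed by more (1.69 over desert intervals). Intervals at the ends of B cell marker genes summed to 770 to 781 CPM in control and 768 to 831 CPM in shIRF4, with all 8 markers present. T cell markers had intervals at 3 of 7 genes and none at CD3D, CD3G, CD2 or CD4 (60.3 to 60.8 CPM in control, 51.8 to 55.5 CPM in shIRF4). Myeloid markers had them at 2 of 7 genes, with none at LYZ, CSF1R, MPO, S100A8 or S100A9 (17.3 to 19.5 CPM in control, 19.5 to 21.3 CPM in shIRF4). Epithelial and fibroblast markers had them at 4 of 7 genes, with none at EPCAM, KRT8 or KRT18 (55.5 to 57.7 CPM in control, 53.1 to 58.8 CPM in shIRF4).

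Desert intervals were short and of modest level. Their median length was 385 bp, against 552 bp over all intervals, and their median level was 4.51 CPM, against 6.20 CPM. Per kilobase the medians were close, 12.8 CPM for desert intervals and 12.7 CPM for all. The median desert interval lay 229260 bp from the nearest protein-coding gene and the farthest 1997939 bp. The midpoint of 3530 lay in no annotated gene, that of 1692 in the body of a lncRNA, and that of 107 in a pseudogene.

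With IRF4 silenced, many of the open sites in deserts differed in accessibility, and most of those that differed were less open. Of the 5416 desert intervals that passed the filter on low counts (16 did not), 1201 were lower and 514 were higher in shIRF4 (adjusted p under 0.05, edgeR), together 31.7%. Over all 73028 tested intervals the percentage called was 22.8%, with 15.5% lower and 7.27% higher, while in deserts 22.2% were lower and 9.49% higher. The median log2 fold change was 0.01 in deserts and 0.01 over all intervals, and the middle 50% of log2 fold changes ran from -0.39 to 0.29 in deserts and from -0.25 to 0.19 over all. The distribution in deserts was thus wider around the same centre with all levels pooled. In the 4 abundance bins set out below, from lowest to highest, the desert medians were 0.13, 0.01, -0.12 and -0.17. Over all tested intervals they were 0.12, -0.01, -0.05 and 0.01, so the centre was lower in deserts in the upper bins. A bulk count cannot tell fewer cells with an open site from less opening in each cell.

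The changes of called intervals were also larger in deserts, where levels were lower, and rises differed less at like abundance. A fall of 2-fold or more was seen in 458 of the 5416 tested desert intervals and a rise of 2-fold or more in 102. Over all 73028 tested intervals, 2852 fell (3.91%) and 819 rose (1.12%) by that much. The median fall among called desert intervals was 1.80-fold and the median rise 1.7-fold, against 1.63-fold and 1.6-fold over all called intervals. In the lowest of 4 abundance bins (set out below) median falls were 2.18-fold in deserts and 2.04-fold over all. Median rises there were 1.82-fold in both. In the highest bin the falls were 1.44-fold and 1.34-fold, and the rises 1.3-fold and 1.27-fold. The groups did not overlap in 3545 desert intervals, 65.5% of those tested, against 59.1% over all intervals. They did not overlap in 1706 of the 1715 that were called, which the call itself makes likely and which adds no support to it. The plot of desert levels shows called intervals along the whole range of levels, with falls reaching far into the well-read ones.

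**Figure D1:**
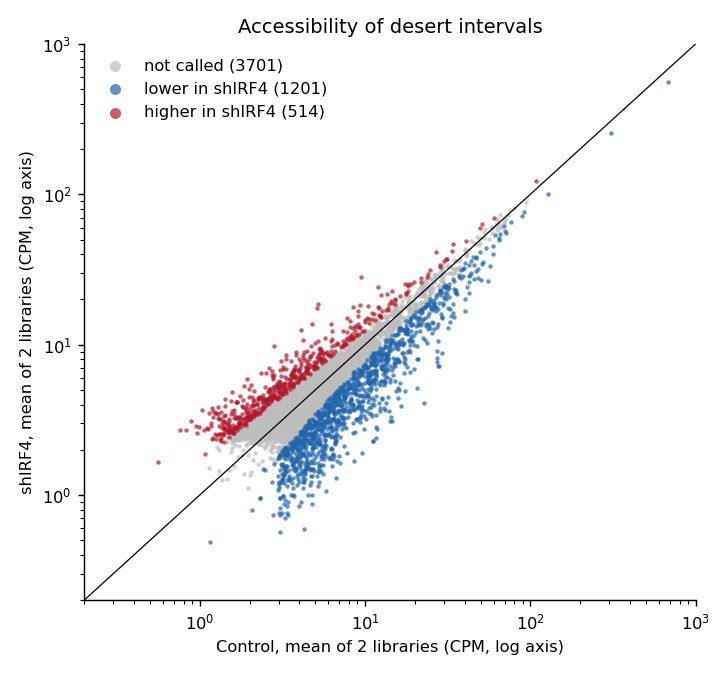
Accessibility of each tested desert interval in control (x axis) and shIRF4 (y axis), as the mean CPM of 2 libraries on log axes, with the line of equal level. Blue points are the 1201 intervals lower in shIRF4, red points the 514 higher and grey points the 3701 not called; blue points run along the lower side of the cloud over most of its length.

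The count of called desert intervals depends on which libraries are used, the controls included, and on the test. Without shIRF4 library 1, the deepest, it was 1011 (803 lower, 208 higher), and the higher count was 288 without control 1 and 280 without control 2. DESeq2 called 630 (539 lower, 91 higher), 11.6% of desert intervals against 6.24% of all. Among called desert intervals, 65.5% of the lower ones and 70.0% of the higher ones lay farther from the control mean in shIRF4 1 than in shIRF4 2. Over all called intervals the shares were close, 66.2% and 68.2%. In deserts the median log2 difference of the lower ones from the control mean was -0.90 in shIRF4 1 and -0.81 in shIRF4 2. That of the higher ones was 0.80 and 0.67.

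As a share of all counts, desert intervals held 4.04% in each control library, 3.81% in shIRF4 1 and 3.73% in shIRF4 2. Both shIRF4 libraries were below both controls, with means of 4.04 ± 0.00285% and 3.77 ± 0.0613% (SD, n = 2), a difference of -0.268 percentage points. The exact two-sided permutation p was 0.333, which is the smallest that 2 libraries against 2 can give.

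How often a desert interval was called differed with its level, mainly on the side of the falls. Tested intervals were split into 4 equal bins by mean abundance over the whole table, and desert intervals were set beside 3 other classes. These are intervals within 1 kb of an end of a protein-coding gene, those elsewhere inside such a gene, and those between genes at 1 to 100 kb. In the bin of highest abundance, above 13.2 CPM, 275 of 556 desert intervals were called, 49.5%, with 222 lower and 53 higher and a median log2 fold change of -0.17. In the same bin 34.4% of intervals inside genes, 34.2% of those between genes and 10.4% of those at gene ends were called. In the bin of lowest abundance the values were 27.4% in deserts, 22.7% inside genes, 21.5% between genes and 16.3% at gene ends.

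Across the bins, from lowest to highest abundance, the percentage called was 27.4, 26.8, 37.4 and 49.5 in deserts and 16.3, 13.9, 15.3 and 10.4 at gene ends. The percentage lower in deserts was 16.7, 18.4, 28.7 and 39.9 from the bin of lowest to that of highest abundance. The percentage higher was 10.7, 8.42, 8.74 and 9.53. Falls of 2-fold or more did not climb in this way, with 205 of 2101, 115 of 1580, 108 of 1179 and 30 of 556 desert intervals. Smaller changes can be called at higher counts, so the climb does not by itself show that well-read sites fell more. How much of the climb this makes up was not tested. In the bin of highest abundance deserts had the highest and gene ends the lowest percentage called in each alternative fit, from 8.81% against 0.303% in the test against a 1.5-fold change to 55.8% against 15.9% without shIRF4 2. With DESeq2 the values were 22.3% and 1.42%. The differences between classes are a description and were not tested.

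**Figure D2:**
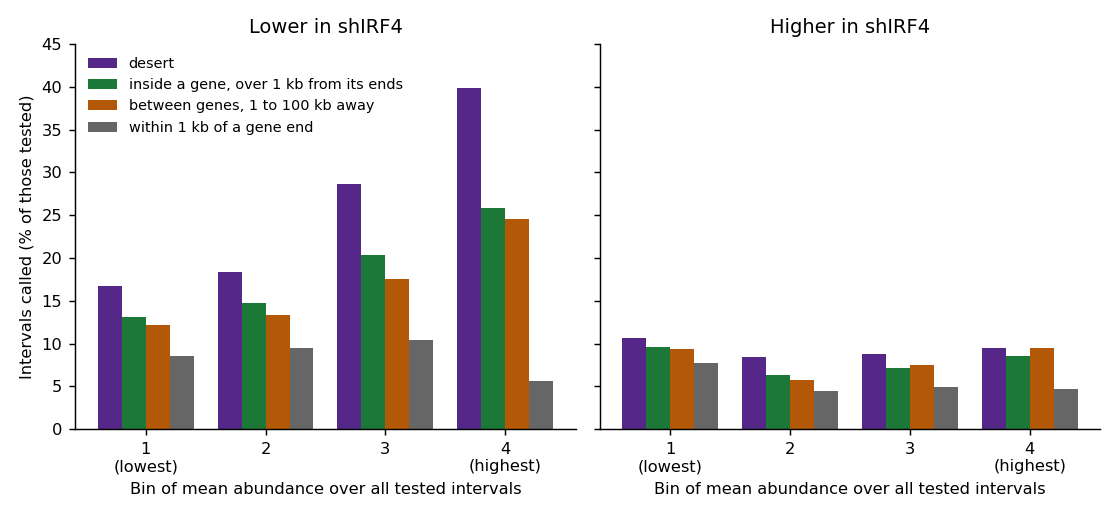
Percentage of tested intervals called lower (left) and higher (right) in shIRF4, by bin of mean abundance over all tested intervals (1 is lowest, 4 is highest), for desert intervals and 3 other classes. In deserts (purple) the lower percentage climbs to 39.9 in the bin of highest abundance, where intervals at gene ends (grey) stand at 5.68. Smaller changes can be called at higher abundance.

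Distance from the nearest gene went with a small further increase. Of desert intervals 100 to 150 kb away 29.1% were called, and the percentages were 31.2 at 150 to 200 kb, 32.4 at 200 to 300 kb, 32.8 at 300 to 500 kb, 33.8 at 500 kb to 1 Mb and 33.9 beyond 1 Mb. Intervals at 50 to 100 kb, just outside the rule, were called in 26.5%. At the boundary itself the values were 26.3% at 90 to 100 kb and 28.6% at 100 to 110 kb. Desert intervals in no annotated gene were called in 32.3% (804 lower, 334 higher) and those in a lncRNA body in 31.6% (356 lower, 177 higher), so lying in a lncRNA made little difference. Of the 107 in pseudogenes, 28 were lower and 2 higher.

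The largest falls were taken, 1 per desert, from the 652 lower intervals whose groups did not overlap and whose abundance reached the median of called desert intervals. At chr14:86542005-86542485, between FLRT2, which encodes an adhesion and guidance receptor, and GALC, which encodes a lysosomal galactosidase, the level was 23.2 and 22.2 CPM in the control libraries. In the shIRF4 libraries it was 3.37 and 4.80 CPM, far below both controls. The mean went from 22.7 ± 0.643 to 4.08 ± 1.01 CPM (SD, n = 2), a log2 fold change of -2.55 (SE 0.14, adjusted p = 8.91e-11, edgeR). This interval lies 887817 bp from FLRT2 and 1390769 bp from GALC, in no annotated gene.

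The next 5 had similar folds and lay in no annotated gene. At chr7:52909785-52910646, between the actin nucleator gene COBL and POM121L12, the level was 11.1 and 11.3 CPM in control and 1.95 and 2.62 CPM in shIRF4 (log2 fold change -2.35, SE 0.18, adjusted p = 6.21e-09, edgeR). At chr5:19284147-19285032, 186707 bp from the cadherin gene CDH18, it was 14.2 and 15.028 CPM in control and 2.71 and 3.49 CPM in shIRF4 (-2.29). Both shIRF4 libraries were low at each place. At chr2:173572809-173573366, between CDCA7 and the transcription factor gene SP3, it was 11.3 and 11.011 CPM against 2.28 and 2.29 CPM (-2.28). At chr2:116550981-116551632, between DPP10, which encodes a potassium channel partner, and the RNA helicase gene DDX18, it was 9.73 and 9.37 CPM against 2.06 and 1.75 CPM (-2.28). At chr5:123905157-123905547, between the kinase gene CSNK1G3 and ZNF608, it was 11.3 and 11.9 CPM against 2.39 and 2.40 CPM (-2.28). Adjusted p for these 4 lay between 1.73e-09 and 1.81e-08 (edgeR).

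The remaining 4 of the largest falls follow, with groups apart as the selection required. At chr3:6717124-6717937, in the lncRNA GRM7-AS3 between EDEM1, a gene of protein disposal in the endoplasmic reticulum, and the glutamate receptor gene GRM7, the level was 15.2 and 13.019 CPM in control and 2.66 and 3.60 CPM in shIRF4 (log2 fold change -2.23). At chr8:78356912-78357765, between the peroxisome gene PEX2 and PKIA, which encodes a protein kinase A inhibitor, it was 13.2 and 15.5 CPM against 2.82 and 3.82 CPM (-2.18). At chr2:129463679-129464648, between HS6ST1, which encodes a heparan sulfate sulfotransferase, and RAB6C, it was 17.6 and 15.4 CPM against 3.53 and 4.25 CPM (-2.12). The last was chr8:106094870-106095400, between ZFPM2, which encodes a cofactor of GATA factors, and OXR1, with 12.2 and 11.2 CPM against 2.4972 and 3.16 CPM (-2.09). Each of these 10 falls kept its direction and its call in every alternative fit, the test against a 1.5-fold change included.

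The largest rises were taken the same way from 200 intervals. At chr3:8357022-8357693, in the lncRNA LMCD1-AS1 between GRM7 and LMCD1, the level was 4.78 and 5.58 CPM in control and 19.5 and 18.001 CPM in shIRF4. The mean went from 5.18 ± 0.564 to 18.7 ± 1.05 CPM (SD, n = 2), a log2 fold change of 1.86 (SE 0.13, adjusted p = 2.02e-09, edgeR). So the deserts on the 2 sides of GRM7 held a large fall and a large rise. At chr2:34997739-34998321, between FAM98A and CRIM1, the level was 3.02 and 2.60 CPM in control and 10.3 and 9.38 CPM in shIRF4 (1.83). At chr8:29885700-29886458, between the phosphatase gene DUSP4 and SARAF, which regulates store-operated calcium entry, it was 5.54 and 4.76 CPM against 19.2 and 15.6 CPM (1.79).

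At chr7:10122490-10123168, between NXPH1 and COXFA4, the level was 3.52 and 4.69 CPM in control and 14.6 and 10.5 CPM in shIRF4 (log2 fold change 1.65). At chr11:81869399-81870348, between the teneurin gene TENM4 and FAM181B, it was 9.98 and 9.0019 CPM in control and 31.2 and 25.2 CPM in shIRF4 (1.60). At chr6:45658982-45659585, 108201 bp from the bone and lymphoid transcription factor gene RUNX2, it was 4.78 and 4.84 CPM against 14.4 and 12.983 CPM (1.52). At chr2:144683013-144683659, in the lncRNA TEX41 beside the transcription factor gene ZEB2, it was 3.61 and 3.05 CPM against 9.99 and 6.98 CPM (1.42). The other 3, near CYRIA, C1orf174 and NAMPT, had log2 fold changes of 1.34, 1.27 and 1.23. The rise near NAMPT, with 4.61 and 2.53 CPM in control and 9.45 and 6.22 CPM in shIRF4, was the 1 rise of the 10 not called by DESeq2 (adjusted p = 0.198).

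**Figure D3:**
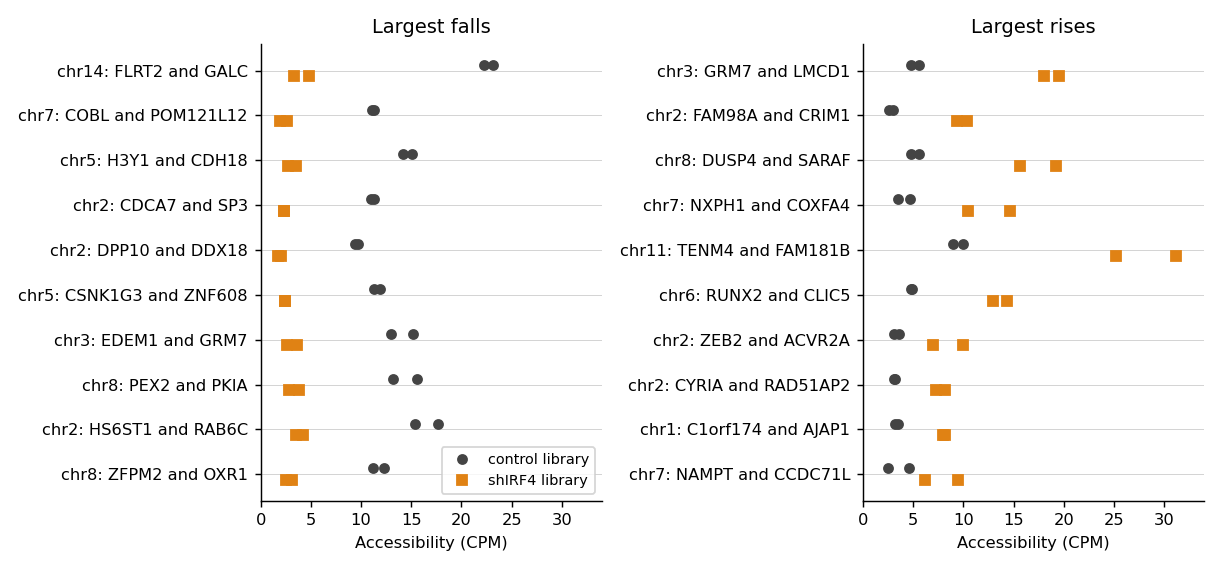
Accessibility (CPM, linear axis) in each of the 4 libraries at the 10 largest falls (left) and 10 largest rises (right) among desert intervals, named by chromosome and by the flanking protein-coding genes. Circles are control libraries and squares shIRF4 libraries. Squares lie left of circles in each row of falls and right of them in each row of rises, without overlap, as the selection required.

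The desert intervals of highest level changed little. Only 5 exceeded 100 CPM in mean, and whether reads at these can be placed with certainty was not tested. Per kilobase the highest of these was chr13:109424078-109424424, between MYO16 and the insulin receptor substrate gene IRS2. Its level per kilobase was 1064 CPM, against a median of 12.8 CPM over desert intervals. It held 395 and 345 CPM in control and 287 and 450 CPM in shIRF4, so its groups overlapped and the shIRF4 libraries bracketed the controls. It was not called with all libraries (log2 fold change -0.02, adjusted p = 0.940, edgeR), while it was called higher without shIRF4 1 (0.29, adjusted p = 0.000192) and lower without shIRF4 2 (-0.37). The pair at chr16:46392665-46397619 and chr16:46398160-46401706, 183449 and 178658 bp from SHCBP1, was called slightly lower (-0.28 and -0.29), although its groups overlapped. The first held 334 and 286 CPM in control and 217 and 296 CPM in shIRF4, and the second 711 and 643 CPM against 466 and 647 CPM. Both calls were lost without shIRF4 1 (-0.05, adjusted p = 0.602, and -0.06, adjusted p = 0.467, edgeR), and the first was also lost without control 1 (-0.16, adjusted p = 0.154). With DESeq2 neither was called (adjusted p = 0.733 and 0.714). In the lncRNA LINC02018 at chr3:75434367-75436419 the level was 107 and 110 CPM in control and 124 and 122 CPM in shIRF4 (0.18, adjusted p = 0.0200), a call lost without either control library (adjusted p = 0.241 and 0.118) and with DESeq2 (0.416). At chr5:1652021-1656232, between LPCAT1 and MRPL36, it was 127 and 128 CPM against 109 and 91.9 CPM (-0.33, adjusted p = 0.000708; 0.0680 with DESeq2).

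The desert intervals farthest from a gene were on chromosome 4. Of the 3 farthest, 2 were neighbours between IGFBP7 and ADGRL3. At chr4:59204687-59204909 the level was 5.62 and 4.84 CPM in control and 2.33 and 2.51 CPM in shIRF4, a fall (log2 fold change -1.12, adjusted p = 0.000484, edgeR). Its neighbour at chr4:59200987-59201310 held 4.11 and 5.36 CPM in control and 4.29 and 4.47 CPM in shIRF4, and the groups overlapped (-0.13, adjusted p = 0.693). The third, chr4:33061007-33061244 between PCDH7 and ARAP2, held 2.52 and 2.23 CPM against 3.69 and 2.73 CPM and was not called (0.50, adjusted p = 0.141).

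To give each desert 1 value, its desert intervals were summed, and the sums were tested beside those of the other intervals of the genome, grouped by gene or gap. Of 906 desert sums tested, 232 were lower and 104 higher, 37.1% in all, against 21.2% over all 23327 summed units (14.1% lower, 7.09% higher). With scaling by library totals alone, the split was 198 lower and 158 higher, so the lower sums made up 55.6% of those called in place of 69.0%. Without control 1 the counts were 170 and 41, without control 2 they were 170 and 44, and without shIRF4 1 they were 228 and 63. DESeq2 called 131 lower and 23 higher.

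Neighbours in a desert shared a direction about as often as neighbours elsewhere. Of 2931 pairs of adjacent tested desert intervals of 1 desert at most 50 kb apart, both were called in 434. In 326 pairs both were lower, in 53 both were higher, and in 55 they were opposite, so 87.3% had the same direction, against 86.0% of such pairs over all tested intervals. Yet 181 of the 908 deserts held both a lower and a higher interval, and 550 held at least 1 called interval. Of 376 deserts with at least 5 tested intervals, at least 50% of intervals were lower in 34 and at least 50% were higher in 4.

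Among deserts with at least 3 intervals, the lower sum of smallest p was between BUB3, a gene of the spindle checkpoint, and the orphan receptor gene GPR26 on chromosome 10. All 8 desert intervals there were lower, over 177064 bp inside the lncRNA LINC02641. Their sum was 87.3 and 85.4 CPM in control and 41.5 and 44.1 CPM in shIRF4 (86.3 ± 1.33 against 42.8 ± 1.86 CPM, SD, n = 2), with the groups far apart. The log2 fold change of the sum was -1.02 (SE 0.06, adjusted p = 5.24e-09, edgeR), and the single intervals ranged from -1.40 to -0.50. The strongest of them, chr10:123391440-123392862, went from 33.5 and 30.1 CPM to 12.8 and 13.2 CPM.

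The other 4 deserts of smallest p with a lower sum also held intervals that were not called, except that beside RUNX1T1. Between COBL and POM121L12, 11 of 19 intervals were lower and none higher, and the sum was 136 and 141 CPM in control and 72.2 and 79.4 CPM in shIRF4 (log2 fold change -0.88, adjusted p = 8.67e-09, edgeR). Between SLC26A7 and RUNX1T1, a gene of a transcriptional corepressor, all 5 intervals were lower, with sums of 74.5 and 77.5 CPM against 34.3 and 40.6 CPM (-1.04). Between CDC14C and VWC2, 5 of 10 were lower, with sums of 57.3 and 56.9 CPM against 29.5 and 30.8 CPM (-0.93). The steepest of these sums was between CDCA7 and SP3, where 4 of 5 intervals were lower and the sum went from 22.7 and 24.1 CPM to 7.92 and 7.95 CPM (-1.56). The fifth interval there, chr2:173612493-173612660, was not called, with 2.18 and 2.38 CPM in control and 2.55 and 2.51 CPM in shIRF4.

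The higher sums of smallest p changed less than these. Between GRM7 and LMCD1 the sum was 24.4 and 26.0 CPM in control and 42.9 and 41.2 CPM in shIRF4 (log2 fold change 0.74, adjusted p = 6.16e-07, edgeR), with 2 of 5 intervals higher. On chromosome 20, between the zinc finger gene ZNF217 and BCAS1, 6 of 12 were higher, with sums of 64.2 and 65.0 CPM against 89.2 and 83.5 CPM (0.42). Between DMAC1 and the phosphatase gene PTPRD, 4 of 10 were higher and 1 was lower (0.38).

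Deserts were also ranked by the share of their intervals that were lower, a ranking chosen after the values were seen, among the 171 with at least 10 tested intervals. The median share lower in these was 22.5%, and 10 of them had no lower interval. Highest was the desert between CCDC68 and TCF4 on chromosome 18, with 14 of 16 lower. Next came the end of chromosome 10 beyond FRG2B with 8 of 10, all within 46830 bp. The sum there was 269 and 275 CPM in control and 183 and 225 CPM in shIRF4. Whether reads can be placed with certainty in that stretch was not tested. Then came EDEM1 to GRM7 with 8 of 11, SOX11 to CMPK2 with 7 of 10, and HS6ST1 to RAB6C with 23 of 33 lower and 1 higher. The sum between HS6ST1 and RAB6C was 299 and 302 CPM in control and 173 and 189 CPM in shIRF4 (log2 fold change -0.73). Falls there ran over 1378038 bp, while the 1 rise stood among intervals that were not called.

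**Figure D4:**
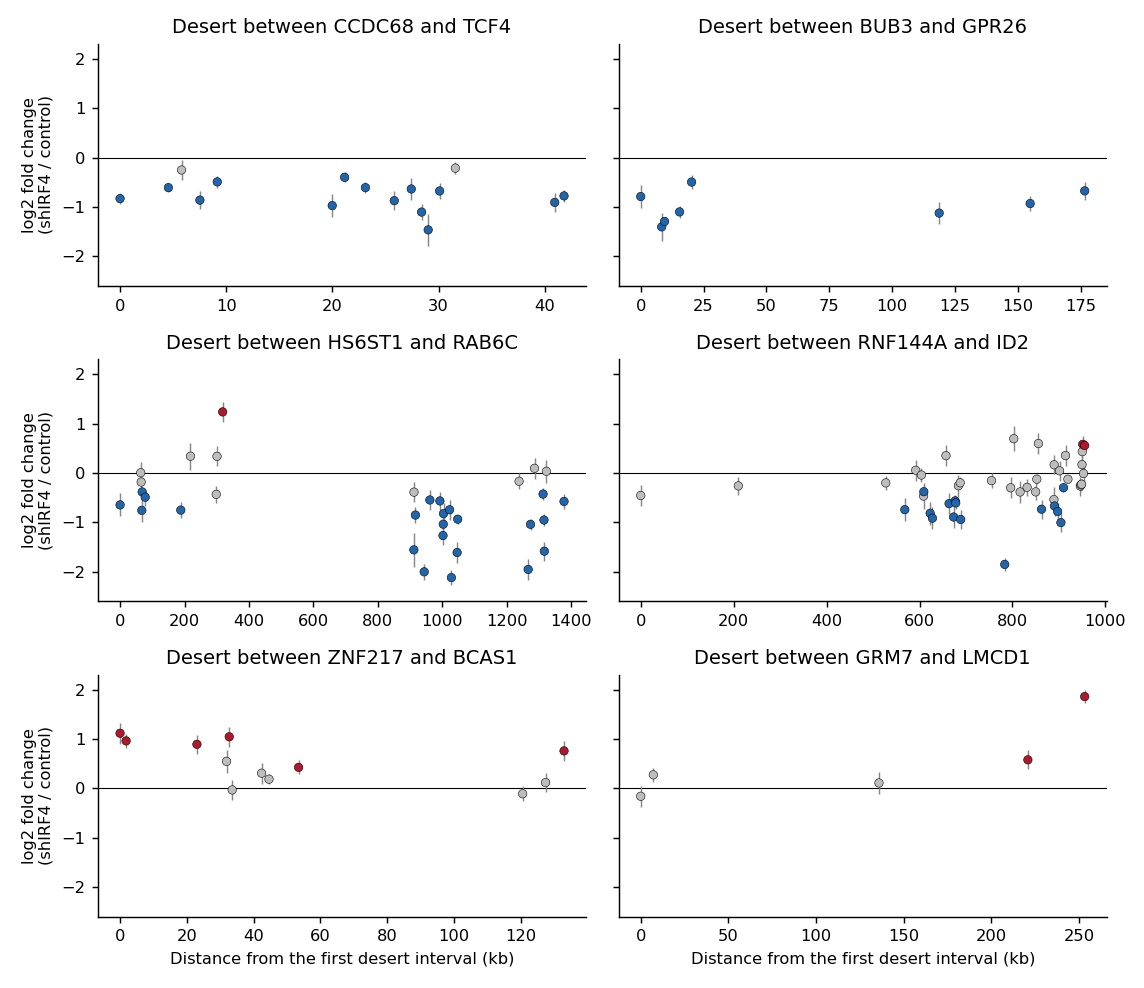
Log2 fold change (shIRF4 over control) of each tested interval in 6 deserts, against its distance in kb from the first desert interval; bars are ± 1 standard error. Blue points were called lower, red points higher and grey points were not called; in the desert between CCDC68 and TCF4 14 of 16 points are blue, and in that between ZNF217 and BCAS1 6 of 12 are red.

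Of 47 listed genes of B cell transcription factors, 15 flank 19 deserts with 318 desert intervals, of which 94 were lower (29.6%) and 30 higher (9.43%), with a median log2 fold change of -0.12. Desert intervals flanked by none of the listed genes were lower in 21.7% (976) and higher in 9.14% (412), with a median of 0.01. Of the 94 falls, 18 lay between MYC and GSDMC, 15 between RNF144A and ID2 and 14 between CCDC68 and TCF4. These deserts held 3, 2 and 0 rises, and intervals of 1 desert are not independent places. The median level was 5.07 CPM in the deserts of these factors and 4.52 CPM at the unlisted flanks. The lists were drawn up with earlier results of these data known, and the difference was not tested.

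TCF4 encodes an E protein, a class of transcription factor that drives B cell and plasma cell programs. In the desert between CCDC68 and TCF4 the sum was 212 and 209 CPM in control and 127 and 142 CPM in shIRF4 (log2 fold change -0.65, SE 0.06, adjusted p = 2.44e-07, edgeR), with no overlap. The interval of smallest p, chr18:55064473-55065515, lies 157191 bp from TCF4 and went from 41.3 and 41.959 CPM to 20.2 and 28.1 CPM (-0.83). On the other side of the gene, towards TXNL1, 5 of 27 intervals were lower and 2 higher. There chr18:56234746-56236109, 599470 bp from TCF4, went from 34.3 and 36.1 CPM to 21.9 and 23.1 CPM (-0.65).

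ID2 encodes an inhibitor of E proteins. In the desert between RNF144A and ID2, 15 of 45 intervals were lower and 2 higher, and the sum was 406 and 407 CPM in control and 341 and 329 CPM in shIRF4 (log2 fold change -0.28, adjusted p = 0.00123, edgeR). That call was lost without either control library (adjusted p = 0.104 and 0.106). The deepest fall there was at chr2:8408763-8409538, 272906 bp from ID2, with 17.4 and 17.8 CPM in control and 4.78 and 5.02 CPM in shIRF4 (-1.85, adjusted p = 2.02e-09), and the groups did not overlap.

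MYC encodes a driver of cell growth. In the desert between MYC and GSDMC, 18 of 52 intervals were lower and 3 higher, with sums of 519 and 502 CPM in control and 425 and 400 CPM in shIRF4 (log2 fold change -0.31, adjusted p = 0.00101, edgeR). That call too was lost without either control library (adjusted p = 0.142 and 0.0795). At chr8:128150705-128152222, 408512 bp from MYC, the level was 28.1 and 30.1 CPM in control and 16.014 and 14.1 CPM in shIRF4 (-0.93). On the other side, towards POU5F1B, 2 of 7 intervals were lower. One of them, chr8:127559257-127559537, went from 7.30 and 8.03 CPM to 2.33 and 3.27 CPM (-1.53).

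ZEB2 encodes a repressor of transcription, and the desert between ZEB2 and ACVR2A moved in both directions. Of 50 intervals, 10 were lower and 8 higher, and the sum was 413 and 413 CPM in control and 412 and 374 CPM in shIRF4, which was not called (log2 fold change -0.07, adjusted p = 0.464, edgeR) except without shIRF4 1 (-0.14, adjusted p = 0.00281). Besides the rise in TEX41 described above, it held a fall at chr2:145739543-145739998 from 5.62 and 6.62 CPM to 1.68 and 1.85 CPM (-1.81). In the desert beside KLF6 towards AKR1E2, 6 of 16 intervals were higher and 2 lower, more rises than falls. Its sum was called higher (0.22, adjusted p = 0.0104), a call lost without control 1, control 2 or shIRF4 1 (adjusted p = 0.0789, 0.162 and 0.105).

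At 3 more deserts of these factors there were falls and no rises. Lower were 7 of 18 intervals between RUNX1 and SETD4, 5 of 13 between BCL6 and LPP and 4 of 17 between MEF2C and CETN3. Over all desert intervals 22.2% were lower and 9.49% higher. The median log2 fold changes in these 3 deserts were -0.30, -0.26 and 0.01. At chr5:89301596-89301993, in MEF2C-AS1, the level went from 5.96 and 5.95 CPM to 1.41 and 2.18 CPM (log2 fold change -1.82). Falls and rises were mixed at the others: between TOX and CA8, 5 of 14 were lower and 3 higher. Beside EBF1, 1 of 7 was lower and 2 were higher, and beside PRDM1, 1 of 11 was lower and 1 higher. Beside ETS1, 2 of 5 were lower and 1 higher, beside FOXO1, 2 of 9 and 1, and between PITRM1 and KLF6, 1 of 5 and 1. The 2 desert intervals beside IRF8, the 2 beside FOXP1 and the 2 between TMEM161B and MEF2C were not called.

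Few genes of B cell receptors and signalling flank a desert. Of 45 listed, 6 flank 7 deserts with 64 desert intervals, of which 12 were lower and 5 higher. Those called, 26.6%, lie between the 31.7% of all desert intervals and the 22.8% of all tested intervals. S1PR1, the receptor for sphingosine 1-phosphate that guides lymphocytes out of lymphoid tissue, had 4 of 10 lower on the side towards OLFM3. There chr1:101407514-101408526 went from 34.3 and 33.6 CPM to 15.6 and 16.9 CPM (log2 fold change -1.08, adjusted p = 1.48e-08, edgeR). Beside CD83, 4 of 13 were lower and 2 higher, and beside the chemokine receptor gene CXCR4, 2 of 16 were lower and 2 higher. Beside PTPRC, which encodes CD45, 2 of 17 were lower and 1 higher, and none of the 5 beside the kinase gene SYK was called.

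Of 15 genes of cell death and the cell cycle, 3 flank a desert, with 8 of 22 intervals lower and 1 higher, beside 22.2% lower over all desert intervals and 15.5% over all tested intervals. With 22 intervals this is a description only. Of the 3, CCND1 and CCND2 encode D-type cyclins, which drive entry into the cell cycle. Between PARP11 and CCND2, 6 of 17 were lower and 1 higher, and chr12:4151764-4152461, 121650 bp from CCND2, went from 10.99 and 9.97 CPM to 4.56 and 4.69 CPM (log2 fold change -1.18, adjusted p = 6.56e-06, edgeR). Between MYEOV and CCND1, 2 of 4 were lower, and chr11:69500348-69500857 went from 6.46 and 6.70 CPM to 1.95 and 2.84 CPM (-1.54).

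Genes of neural and developmental programs were listed for comparison, since they often border deserts. Of 54, 45 flank 63 deserts with 508 tested intervals, of which 177 were called. That is 34.8%, against 31.7% of all desert intervals and 22.8% of all tested intervals. Of the 508, 21.9% were lower, close to the 21.7% at the unlisted flanks. Rises were more frequent than there: 66 of the 508 were higher, a larger share than the 9.14% at the unlisted flanks. That share was also the largest of the 4 lists, and these differences were not tested. The median log2 fold change was 0.10. The median level was 3.93 CPM, against 4.52 CPM at the unlisted flanks.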

How the data were processed

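The authors deposited unscaled counts for each peak of a merged list (the intervals), produced by featureCounts 2.0.0, per the file headers. Reads were reduced to their 5′ end, duplicates were ignored and libraries were read as paired-end, per the file headers. Fractions of multi-mapping reads were requested, yet 0 counts were non-integer. Per the submitters' processing notes, coordinates are in hg38. Which aligner and which peak caller were used is not given in the sources used here. Ignoring duplicates caps the counts of densely read intervals, more so in a deeper library.

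Gene bodies came from a RefSeq table of the same build (20056 protein-coding genes), and centromere positions were standard hg38 bands rounded to whole Mb. Genes known only by a LOC number counted for distance and were not used to name a flank, and 162 desert intervals had a gene on one side only. The rule left out 5 longer intervals. The fit used the 4 libraries and all intervals in edgeR 4.0.16 (R 4.3.3, limma 3.58.1): filterByExpr, which left 73028 and removed 107, TMM factors (0.981 to 1.03), and the two-sided quasi-likelihood F-test of the group, adjusted by Benjamini and Hochberg over the whole tested table, threshold 0.05. Desert sums were fitted the same way. "Rose", "fell", "lower", "higher" and "called" refer to that threshold. SE is the size of the log2 fold change divided by the square root of F. CPM uses the TMM-scaled totals. The fit was tested on simulated data.

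Named intervals followed a rule. It takes the 10 largest falls and 10 largest rises as described, the 5 of highest level, the 3 farthest from a gene, and the interval of smallest p in up to 10 deserts flanked by a listed gene. It takes the 5 deserts with most intervals, and in each direction the 5 with the smallest p among those with at least 3 intervals. Some deserts that this rule names are not reported here. The members, lists and rules were chosen with earlier results of these data known. The planned motif search within intervals was not run, since no genome sequence was used; motifs were searched in RefSeq promoter windows, a step chosen later. Whether replicate numbers pair the libraries could not be decided. Deviations from the group means correlated at -0.03 between same-numbered libraries. Since the deviations of the controls are almost all sampling noise, a weak correlation would be found with or without pairing. Alternatives were RLE factors, library totals, DESeq2 1.42.0, no filter, a replicate block, a 1.5-fold test, other distances, lengths and centromere margins, summed controls, and each library left out.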

Additional observations from a re-analysis of the deposited data

How the results depend on the processing

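Direction and call held for most named results: over the alternative fits, 395 values of named intervals kept both, 18 lost the call, 1 gained it and 4 changed sign. For named deserts the counts were 192, 11, 3 and 1. The sign changed at chr13:109424078-109424424 (0.027 with library totals, and -0.37 to 0.29 with 1 library left out), at chr4:59200987-59201310 (-0.30 to 0.083 with 1 left out) and for the sum between IVNS1ABP and HMCN1 (0.000931 with library totals); the cause was not tested. The 1715 called desert intervals became 630 with DESeq2 (539 lower, 91 higher), all of them among the 1715, and 479 against a 1.5-fold change (407 lower, 72 higher). Fewer or more members gave 1012 beyond 200 kb (721 lower, 291 higher), 814 higher ones beyond 50 kb, and 193 where all annotated genes were avoided (149 lower, 44 higher). At or above the median abundance, an alternative added after seeing the data, 716 were called (560 lower, 156 higher). Leaving out 1 library gave 1011 to 1877 called (803 to 1268 lower, 208 to 609 higher), and 784 of the 1715 were called in each of these 4 fits; a lone library was assumed to vary like the other group. Desert sums numbered 336 (232 lower, 104 higher), against 154 with DESeq2 (131 lower, 23 higher), 158 higher with library totals, and 211 to 408 with 1 library left out (170 to 268 lower, 41 to 140 higher). With the replicate block, which pairs libraries by their number, 1705 intervals (1207 lower, 498 higher) and 345 sums were called. With the control libraries summed to 1 sample, 1504 intervals were called. The share of counts in deserts stayed lower in shIRF4, by -0.311 to -0.225 percentage points with 1 library left out. The difference was -0.139 for lengths up to 1 kb, -0.162 beyond 200 kb and -0.045 where all annotated genes were avoided, each over fewer intervals. The median desert interval had 40 counts in the shallowest library, so small changes in weak intervals were not detectable at this depth.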

Other observations

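Falls and rises were counted for each chromosome. On chromosome 18, 94 of 290 tested desert intervals were lower and 17 higher, with a median log2 fold change of -0.19. On chromosome 20 it was the other way, with 8 of 65 lower and 14 higher and a median of 0.25, and 6 of those 14 rises lay in the single desert between ZNF217 and BCAS1. Chromosome 19, with 17 tested, had the highest share lower, 35.3% (6 lower, none higher), and the lowest median, -0.42. The highest percentages called were 39.7 on chromosome 13 (57 lower, 37 higher) and 38.3 on chromosome 18, and the lowest were 22.2 on chromosome 16 and 22.7 on chromosome 14. These differences were not tested.

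Some deserts hold copied sequence, where reads cannot be placed with certainty, or antigen receptor genes. On chromosome 9 between 45 and 68 Mb, 45 of 158 tested desert intervals were lower and 2 higher, with a median log2 fold change of -0.29. The largest group there, 69 intervals between SPATA31A6 and SPATA31A5, had 27 lower and none higher. Its sum was 977 and 903 CPM in control and 634 and 865 CPM in shIRF4 (-0.33, adjusted p = 0.0281, edgeR), a call lost without control 1 (adjusted p = 0.417) or control 2 (0.218) and with DESeq2 (0.602). The desert with most intervals, 92, is the end of chromosome 14 beyond TMEM121, which holds the immunoglobulin heavy chain genes. There 13 were lower and 2 higher, and the sum was 1516 and 1529 CPM against 1401 and 1378 CPM (-0.13, adjusted p = 0.290, edgeR). That sum was called lower without shIRF4 1 (-0.14, adjusted p = 0.000991) or shIRF4 2 (-0.12, adjusted p = 0.00164). Without these stretches, the other antigen receptor loci and a stretch of copied sequence on chromosome 2, an alternative added after seeing the data, 32.0% of desert intervals were called (1126 lower, 507 higher of 5103).

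Among the deserts with the highest share of rises, that between LPIN1 and TRIB2 had 5 of 11 intervals higher and 2 lower, and its sum was not called (49.99 and 50.5 CPM in control, 54.5 and 50.9 CPM in shIRF4). That between IVNS1ABP and HMCN1 had 4 of 12 higher and 2 lower, with a sum of 140 and 143 CPM against 141 and 130 CPM.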
